A study of Mus musculus with 15 samples.

Results

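The leukemia KO7, labelled as a Bcat1 knock-out, was compared with the Bcat1 wild-type leukemia WT0 across all measured genes. Libraries were chosen by their labels alone, which gave 3 KO7 libraries and 3 WT0 libraries, 6 of the 15 libraries in the series. The labels describe leukemic T cells of the spleen from mice that carry a leukemia driven by ΔE-NOTCH1, a truncated NOTCH1 receptor that signals without ligand. The series asks what loss of BCAT1, by deletion or by an inhibitor, does to gene expression in such leukemias. For KO7, marrow progenitors of Bcat1 knock-out mice, sorted as GFP+, lineage-negative, cKit+ and Sca1+, were transduced with ΔE-NOTCH1 and given to C57BL/6J hosts after lethal irradiation. For WT0, Bcat1 wild-type progenitors were handled in the same way, and both groups carry PBS as their treatment label. Both groups therefore share the ΔE-NOTCH1 transgene, the host strain and the tissue, and their labels differ in genotype and in leukemia number. Header names of the 3 WT0 libraries contain DMSO, against their PBS label. A difference in vehicle between the groups, if there was one, cannot be told apart from genotype. Each group carries a single leukemia number (7 and 0), and the labels do not say whether its 3 libraries came from separate mice. The p-values then measure only the spread between these libraries, which may be technical. The other wild-type leukemia, WT6, and the other knock-out leukemia, KO3, with 3 libraries each and also labelled PBS, are given as levels beside the genes of the comparison. The ERG-245 libraries of WT0 entered the fit and are described only for their receptor segments.

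BCAT1 is the cytosolic branched-chain aminotransferase, which hands the nitrogen of the branched-chain amino acids (leucine, isoleucine, valine) over to 2-oxoglutarate and so yields glutamate and branched-chain keto acids. BCAT2 carries out the same reaction in mitochondria, and the branched-chain keto acid dehydrogenase complex takes the keto acids further, toward acetyl-CoA and succinyl-CoA. Leucine is sensed by the mTORC1 pathway, and 2-oxoglutarate is a substrate of the dioxygenases that demethylate DNA and histones. NOTCH1 is a receptor whose cleaved inner part turns on transcription in early T cells, and activating changes in it are common in T cell acute lymphoblastic leukemia (T-ALL).

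Total counts were 17441292 to 22936005 in the WT0 libraries and 17645879 to 20066885 in the KO7 libraries, and 19679 to 20497 genes were detected per library. Levels are CPM, counts divided by the scaled library total, which compare a gene between libraries and not genes with each other. Differences are log2 values, KO7 minus WT0, from edgeR's quasi-likelihood test with Benjamini-Hochberg adjustment over all 15948 tested genes. The T cell label held in both groups, since the receptor chain genes Cd3d, Cd3e and Cd3g were expressed in each of the 6 libraries, Cd3e at 228 CPM or more on average. Across genes, libraries correlated at 0.993 to 0.995 within a group and 0.953 to 0.955 between the groups (genes are not independent replicates). By a chi-square test of counts, KO7 replicate 2 differed most from its group (2.93 and 4.03 per degree of freedom against KO7 replicates 1 and 3, where the other pairs within a group gave 1.73 to 1.92).

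Of the 15948 tested genes, 11068 (69.4%) passed an adjusted p of 0.05, 5497 (34.5%) higher and 5571 (34.9%) lower in KO7. Those that passed and differed at least 2-fold numbered 2584 (16.2%), 1378 (8.64%) higher and 1206 (7.56%) lower. The counts of each gene list below are to be read against these shares of all tested genes. The median log2 difference over all tested genes was -0.0017, with quartiles of -0.35 and 0.35. Differences of at least 8-fold were found for 98 higher and 125 lower genes. The other wild-type leukemia, WT6, differed from the same WT0 libraries at 11558 genes (72.5%) and at least 2-fold at 3013 (18.9%). Both comparisons share the WT0 libraries, and a difference of this breadth was thus also present between 2 leukemias of the same genotype label. In a comparison of 1 knock-out with 1 wild-type leukemia, the genotype and the individual leukemia cannot be told apart.

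Bcat1 was strongly reduced in KO7, as its genotype label states, though counts remained. Its level was 18.4, 16.7 and 18.3 CPM in WT0 and 2.11, 2.67 and 1.48 CPM in KO7, and the groups did not overlap, as held for 70.7% of tested genes (log2 -3.09 ± 0.12 SE, adjusted p = 1.67e-36 by edgeR). Before scaling these were 415, 379 and 317 counts in WT0 and 42, 47 and 26 counts in KO7. By mean CPM, KO7 kept 11.7% of the WT0 level. In WT6 the level was 35.2 CPM and in KO3 6.95 CPM, so the wild-type leukemias also differed from each other. Counts were taken over all exons together, and which exons were deleted is not given in the sources used here. Bcat1 lies on chromosome 6 at chr6:144993835-145076157 on the minus strand (GRCm38.p6). Among 55 tested genes within 5 Mb of it, 15 were higher and 15 lower in KO7, 3 and 3 of them at least 2-fold, with a median log2 of 0.0031. On the rest of chromosome 6, 344 of 870 genes were higher and 270 lower, with a median of 0.041. The lactate dehydrogenase subunit gene Ldhb, one of the genes near Bcat1, was at 31.1, 32.7 and 32.7 CPM in WT0 and 134, 136 and 134 CPM in KO7 (log2 2.07 ± 0.039 SE, adjusted p = 1.83e-57 by edgeR). The 3 KO7 libraries were all above the 3 WT0 libraries. Ldhb was at 116 CPM in WT6, close to KO7, and at 66.6 CPM in KO3.

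KO7 and WT0 differed in their leading T cell receptor beta V segments. A T cell and its progeny keep the V segment that was joined during the cell's development, so segment shares can differ between clones. Counts per segment hold no junctions, so neither the receptor chains nor the clones were read directly. In WT0, Trbv17 held 39.5, 38.9 and 40.6% of all TRBV counts, followed by Trbv3 with 19.1% ± 0.67 (SD, n = 3), Trbv19 with 11.5% and Trbv13-2 with 10.3%. In KO7, Trbv5 held 78.8, 80.1 and 78.5% and Trbv15 held 15.7% ± 0.79 (SD, n = 3). The leading segment of one group was nearly absent from the other, since Trbv5 was at 0.59% in WT0 and Trbv17 at 0.0084% in KO7. The shares rest on 13155 to 16909 TRBV counts per WT0 library and 10741 to 12095 per KO7 library, and PCR copies among them cannot be recognised. The WT0 libraries with ERG-245 had another leading segment, Trbv16 at 49.9%, with Trbv17 at 0.93%. The label number thus does not stand for 1 set of leading segments. These segments were picked after their values were seen, and near-identical segments may share reads. The plot of segment shares shows that the 3 libraries of a group had the same leading segments.

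**Figure D1:**
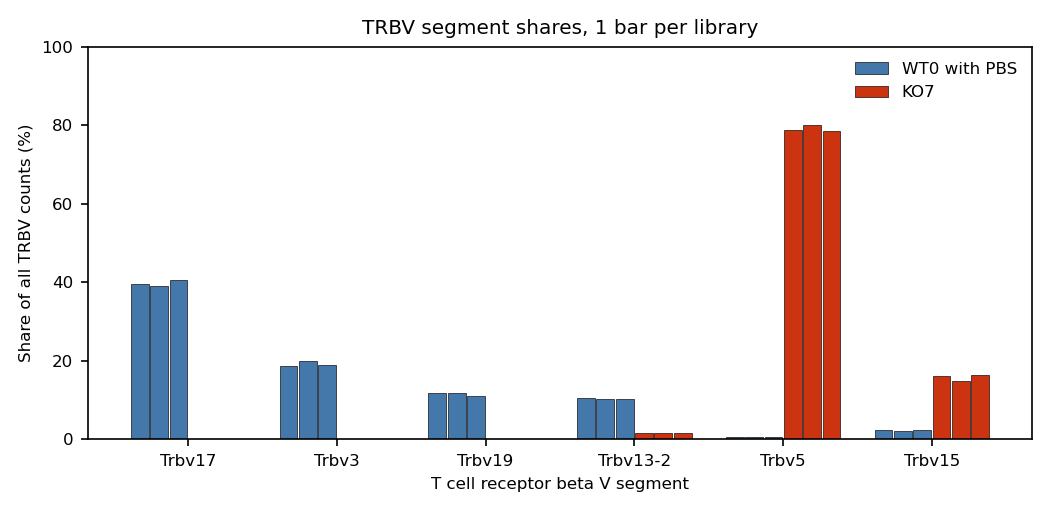
Share of all T cell receptor beta V segment counts (y axis, %) for the 6 leading segments (x axis), with 1 bar per library of WT0 with PBS (blue) and KO7 (red). Trbv17 led in WT0 at 39.7% and Trbv5 in KO7 at 79.1% on average.

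Joining segments and constant genes of the locus differed as well. Trbj1-1 was at 6.96 CPM in WT0 and had 0 counts in all 3 KO7 libraries, at least 128-fold lower when 3 counts over the group are taken as the limit that 0 allows. Trbj1-3 was at 6.14 CPM in WT0 and also had 0 counts in KO7, at least 113-fold lower by the same limit. The constant gene Trbc2, which serves the second set of joining segments, made up 84.8% of Trbc counts in WT0 and 91.7% in KO7. Among 71 tested genes picked by T cell receptor name, constant genes included, 16 were higher and 35 lower in KO7. Of these, 8 and 28 differed at least 2-fold, and the median log2 was -1.06. The name pattern also fits Tradd, which is not a receptor segment. Over all tested genes, 34.5% were higher and 34.9% lower. Prss2, a trypsinogen gene that sits inside the beta locus, was at 121, 127 and 122 CPM in WT0 and 1.61, 1.70 and 1.19 CPM in KO7 (log2 -6.35 ± 0.089 SE, adjusted p = 7.14e-65 by edgeR). It was at 6.27 CPM in WT6 and had 0 counts in KO3.

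The sex-linked genes separated the groups completely. Xist, the RNA that coats the inactive X chromosome in female cells, was at 4489, 4211 and 4419 CPM in WT0 and 107, 109 and 108 CPM in KO7. The KO7 libraries were all far below the WT0 libraries (log2 -5.34 ± 0.029 SE, adjusted p = 6.16e-95 by edgeR). The 4 listed Y genes had 0 counts in every WT0 library, whereas 2 low Y gene models had counts there and were lower in KO7. Eif2s3y, a translation initiation factor gene on the Y chromosome, was at 110.0 to 114 CPM in KO7, at least 2334-fold above the limit that 0 of the WT0 counts allows (3 counts over the group). By the same limit Ddx3y was at least 1417-fold higher, Kdm5d at least 867-fold and Uty at least 629-fold. Of 9 listed X-linked genes that escape inactivation, Xist itself among them, 7 were lower in KO7. The 1 higher gene was Mid1 (log2 1.98). The lower ones included the histone demethylase genes Kdm5c (log2 -0.68) and Kdm6a (log2 -0.67). The median log2 difference was -0.060 for 493 genes of the X chromosome and -0.057 to 0.041 over the autosomes. The mean of Xist was 323 CPM in WT6 and 212 CPM in KO3, and Eif2s3y was at 94.5 and 89.1 CPM there. WT0 was therefore the 1 leukemia of these 4 with high Xist and 0 counts of the 4 listed Y genes. Sex of the cells, clone and genotype cannot be told apart between KO7 and WT0.

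Branched-chain amino acid genes other than Bcat1 differed little. Of the 8 aminotransferase and keto acid dehydrogenase genes, 4 were higher and 2 lower in KO7, near the 69.4% called over all tested genes, and Bcat1 was the one that differed at least 2-fold (median log2 0.05). The mitochondrial aminotransferase Bcat2 was at 54.1, 55.7 and 53.2 CPM in WT0 and 62.2, 65.2 and 61.6 CPM in KO7, a small difference in which the groups did not overlap (log2 0.21 ± 0.041 SE, adjusted p = 6.07e-06 by edgeR). Bckdha and Bckdhb encode the subunits of the dehydrogenase that does the decarboxylation. Bckdha was at 37.6, 39.3 and 40.1 CPM in WT0 and 48.7, 49.1 and 46.7 CPM in KO7 (log2 0.31 ± 0.048 SE, adjusted p = 4.27e-08 by edgeR). Bckdhb had log2 0.33 ± 0.13 SE, adjusted p = 0.0184 by edgeR, a call that was lost in 3 of 6 repeats that left out 1 library (adjusted p = 0.0782, 0.0512 and 0.297). Bckdk, the kinase that inhibits the complex, was at 70.6, 73.1 and 72.4 CPM in WT0 and 62.8, 59.7 and 58.7 CPM in KO7 (log2 -0.25 ± 0.04 SE, adjusted p = 5.05e-08 by edgeR). The transacylase gene Dbt (log2 -0.012 ± 0.058 SE, adjusted p = 0.859 by edgeR) and the phosphatase gene Ppm1k (log2 -0.058 ± 0.066 SE, adjusted p = 0.438 by edgeR) did not pass. Among 19 genes of the later steps of this breakdown, 7 were higher and 2 lower, none by 2-fold, with a median of 0.02. The share called was 47.4%, against 69.4% of all tested genes. Acat1, a thiolase of isoleucine and ketone body breakdown, was the one with the largest difference, from 89.2 to 127 CPM (log2 0.51).

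Among 20 amino acid transporter genes, 7 were higher and 10 lower in KO7, against 34.5% and 34.9% of all tested genes, with a median log2 of -0.10. Slc43a2, a carrier of branched-chain and other large neutral amino acids, was at 61.6, 59.5 and 62.4 CPM in WT0 and 179.9, 172 and 171 CPM in KO7 (log2 1.52 ± 0.034 SE, adjusted p = 2.92e-52 by edgeR). The KO7 libraries were all above the WT0 libraries, and above WT6 (93.5 CPM) and KO3 (60.2 CPM). The main leucine importer subunit Slc7a5 was lower, from 157 to 122 CPM (log2 -0.36), as were the arginine and lysine carrier Slc7a1 (log2 -0.69) and the proton-coupled carrier Slc36a4 (log2 -0.94). Macrophage markers summed to 3 times more in KO7, and the part of macrophage RNA in the Slc43a2 difference was not tested.

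The 33 leucine-sensing and mTORC1 genes had 16 higher and 12 lower members, 1 and 3 of them at least 2-fold, with a median log2 of 0.11. Over all tested genes, 34.5% were higher and 34.9% lower, and 16.2% differed at least 2-fold, against 12.1% of this list. Ddit4, a stress-induced inhibitor of mTORC1, was at 137, 144 and 137 CPM in WT0 and 503, 497 and 482 CPM in KO7 (log2 1.82 ± 0.026 SE, adjusted p = 3.15e-65 by edgeR). Its levels in WT6 (363 CPM) and KO3 (278 CPM) lay between those of KO7 and WT0. Deptor, an inhibitory partner of the mTOR kinase, was at 89.5, 85.2 and 84.8 CPM in WT0 and 39.6, 37.4 and 37.7 CPM in KO7 (log2 -1.18 ± 0.042 SE, adjusted p = 1.03e-38 by edgeR). The Rag GTPase genes Rragd (log2 -1.28) and Rragb (log2 -1.20), whose products bring mTORC1 to the lysosome, were lower too. Eif4ebp1, the translation repressor that mTORC1 phosphorylates, was higher in KO7, from 17.1 to 31 CPM (log2 0.86). Inhibitors of the pathway thus went in both directions.

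Among 30 genes of the TCA cycle and of glutamate handling, 15 were higher and 9 lower, with a median of 0.07. The share called was 80%, against 69.4% of all tested genes. Glutamine synthetase, Glul, which uses glutamate to make glutamine, was at 136, 134 and 133 CPM in WT0 and 279.8, 289 and 275 CPM in KO7 (log2 1.06 ± 0.028 SE, adjusted p = 1.17e-47 by edgeR), and WT6 (135 CPM) and KO3 (108 CPM) were like WT0 or lower. The cytosolic enzyme that makes 2-oxoglutarate from isocitrate, Idh1, was at 25.2, 22.5 and 25 CPM in WT0 and 48.8, 48.6 and 46.7 CPM in KO7 (log2 0.99 ± 0.056 SE, adjusted p = 8.17e-27 by edgeR). Its mitochondrial counterpart Idh2 went the other way, from 87.1 to 55.1 CPM (log2 -0.66). Psat1, which also turns glutamate into 2-oxoglutarate, was lower (log2 -0.37). As for Slc43a2, the part of macrophage RNA in the Glul difference was not tested.

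Of 31 tested 2-oxoglutarate-dependent dioxygenases, 8 were higher and 16 lower in KO7, with a median log2 of -0.10. Among all tested genes, 34.5% were higher and 34.9% lower. All 3 genes of the TET family, which oxidise 5-methylcytosine in DNA, were lower. Tet1 was at 13.3, 12.7 and 15.2 CPM in WT0 and 4.22, 4.60 and 4.94 CPM in KO7 (log2 -1.57 ± 0.11 SE, adjusted p = 1.8e-22 by edgeR). WT6 stood above both groups at 35.4 CPM and KO3 at 16.8 CPM. Tet3 fell from 121 to 67.4 CPM (log2 -0.84), and Tet2 from 17.4 to 10.3 CPM (log2 -0.76). Plod1, a collagen lysyl hydroxylase, was higher (log2 1.36). Of 33 histone acetylation genes, 7 were higher and 16 lower, or 69.7% called against 69.4% of all tested genes. The class II deacetylases Hdac4 (log2 -1.22), Hdac5 (log2 -0.73), Hdac6 (log2 -0.80), Hdac7 (log2 -0.69) and Hdac9 (log2 -0.89) had the largest differences, and each was lower.

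Several genes of double-positive thymocytes, the stage at which T cells in the thymus carry both CD4 and CD8, were higher in KO7, while several early T cell regulators were lower. The coreceptor Cd4 was at 63, 66.3 and 64.7 CPM in WT0 and 446, 452 and 435 CPM in KO7 (log2 2.78 ± 0.029 SE, adjusted p = 1.19e-74 by edgeR). All KO7 libraries were far above all WT0 libraries. The coreceptor chain Cd8a was at 166, 162 and 164 CPM in WT0 and 806, 817 and 812 CPM in KO7 (log2 2.31 ± 0.024 SE, adjusted p = 1.91e-75 by edgeR), and its partner Cd8b1 at 95.7, 97.9 and 95.6 CPM in WT0 and 473, 479 and 465 CPM in KO7 (log2 2.29 ± 0.028 SE, adjusted p = 4.99e-70 by edgeR). Ptcra, the pre-T cell receptor alpha chain used before an alpha chain is made, was at 221, 220.4 and 223 CPM in WT0 and 387, 396 and 378 CPM in KO7 (log2 0.80 ± 0.027 SE, adjusted p = 5.24e-41 by edgeR). WT6 was also above WT0 for these 4 genes, with Cd8a at 870.0 and Cd4 at 211 CPM, and KO3 lay between WT0 and KO7 for Cd4 (111 CPM) and Cd8a (327 CPM). Of the recombinase genes, which cut receptor genes at this stage, Rag1 went from 604 to 769.6 CPM (log2 0.35 ± 0.022 SE, adjusted p = 6.53e-24 by edgeR) and Rag2 from 37.1 to 30.3 CPM (log2 -0.29 ± 0.055 SE, adjusted p = 3.32e-06 by edgeR). Over the 28 immature thymocyte genes, 17 were higher and 10 lower, with a median log2 of 0.23. Of all tested genes, 34.5% were higher and 34.9% lower.

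**Figure D2:**
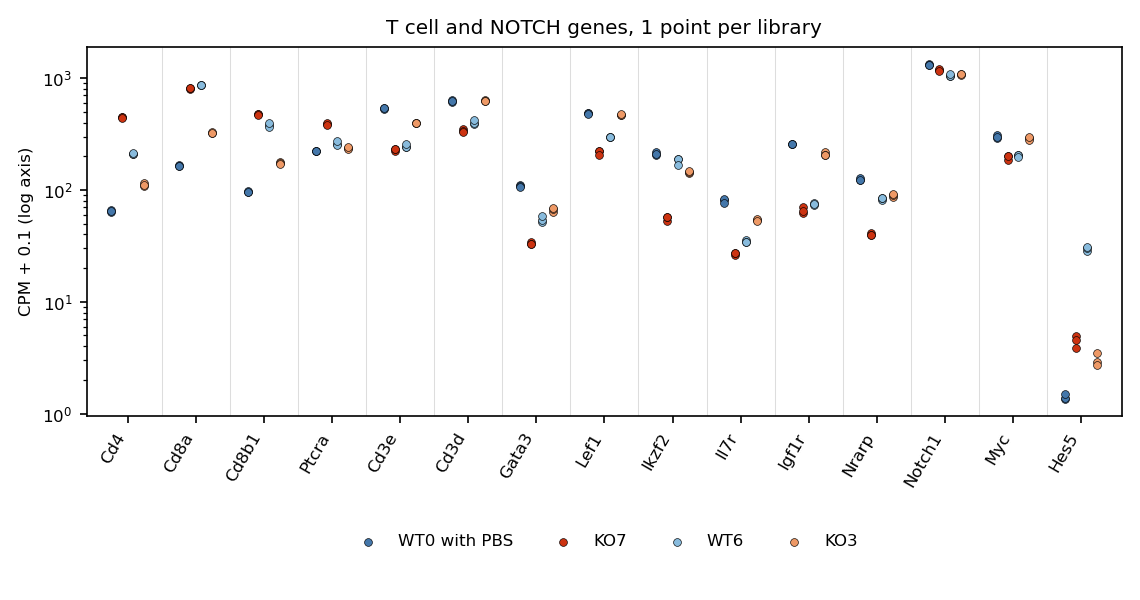
Level of 15 T cell and NOTCH genes (x axis) in CPM plus 0.1 (y axis, log scale), with 1 point per library of WT0 with PBS, KO7, WT6 and KO3. Cd4, Cd8a and Cd8b1 were higher in all 3 KO7 libraries than in WT0, and Cd3e, Gata3, Ikzf2, Il7r, Igf1r and Nrarp lower.

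Of 43 T-lineage transcription factors, 17 were higher and 20 lower, against 34.5% and 34.9% of all tested genes, and 5 and 8 of them differed at least 2-fold (median log2 -0.10). Gata3, needed for commitment to the T lineage and for CD4 cells, was at 111, 108 and 106 CPM in WT0 and 34.3, 32.7 and 32.6 CPM in KO7 (log2 -1.71 ± 0.044 SE, adjusted p = 3.15e-48 by edgeR). Lef1, a partner of β-catenin in early thymocytes, was at 490.3, 488 and 479 CPM in WT0 and 222, 222 and 206 CPM in KO7 (log2 -1.17 ± 0.025 SE, adjusted p = 8.83e-54 by edgeR). The Ikaros family member Ikzf2 was at 217, 207 and 211 CPM in WT0 and 52.5, 57.3 and 57.3 CPM in KO7 (log2 -1.93 ± 0.037 SE, adjusted p = 3.74e-57 by edgeR). For each of these 3 genes every KO7 library lay below every WT0 library, and below WT6 and KO3 as well. Sox13, a factor of gamma-delta T cells, was lower (log2 -2.13), as were Bach2 (log2 -2.03), a repressor that holds T cells in an undifferentiated state, and Runx1 (log2 -1.07). Tcf7, a direct NOTCH target that starts the T cell programme, had log2 -0.32 ± 0.022 SE, adjusted p = 1.92e-22 by edgeR, and Bcl11b, which seals commitment, had log2 -0.40 ± 0.028 SE, adjusted p = 2.62e-21 by edgeR.

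The CD3 chains, which carry the signal of the receptor, did not move together. Cd3e was at 538, 530.4 and 535 CPM in WT0 and 222, 233 and 230.0 CPM in KO7 (log2 -1.23 ± 0.024 SE, adjusted p = 6.94e-56 by edgeR). Cd3d fell from 622 to 338 CPM (log2 -0.88) and Cd3g from 528 to 379 CPM (log2 -0.48), whereas the zeta chain Cd247 rose from 119 to 232 CPM (log2 0.96). Over 30 genes of the receptor complex and its signalling, 15 were higher and 8 lower, with a median of 0.10. For this list and the next, 34.5% of all tested genes were higher and 34.9% lower. Rasgrp1, which couples the receptor to RAS, fell from 222 to 107 CPM (log2 -1.05), and the inhibitory adaptor Sit1 rose from 21.1 to 53 CPM (log2 1.34). Among 28 genes of mature T cells and homing, 16 were higher and 10 lower. Ccr9, the receptor for the thymic and gut chemokine CCL25, was at 3.51, 3.35 and 4.10 CPM in WT0 and 26.2, 24.5 and 24.8 CPM in KO7 (log2 2.80 ± 0.087 SE, adjusted p = 9.9e-43 by edgeR). It was higher still in WT6, at 122 CPM.

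The receptor genes Il7r and Igf1r fell, while several other cytokine receptor genes rose. Il7r, the receptor for interleukin 7, on which early T cells depend, was at 81.4, 82.4 and 76.3 CPM in WT0 and 26.2, 27.4 and 27.2 CPM in KO7 (log2 -1.58 ± 0.048 SE, adjusted p = 2.39e-43 by edgeR). Igf1r, the receptor for insulin-like growth factor 1, was at 255, 255 and 257 CPM in WT0 and 70.4, 62 and 64.7 CPM in KO7 (log2 -1.96 ± 0.033 SE, adjusted p = 5.85e-61 by edgeR). Both genes were low in WT6 too (34.5 CPM for Il7r and 74.4 CPM for Igf1r), and stood at 53.7 and 209 CPM in KO3. The interferon gamma receptor Ifngr1 rose from 79.9 to 191 CPM (log2 1.26), Il4ra from 19.6 to 45.5 CPM (log2 1.20) and the cytokine signal inhibitor Socs1 from 15.6 to 35.9 CPM (log2 1.21). Of the 37 genes in this list, 22 were higher and 12 lower (median 0.29), against 34.5% and 34.9% of all tested genes.

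Of 28 NOTCH receptors and targets, 13 were higher and 12 lower, 4 in each direction at least 2-fold, with a median of 0.09. All tested genes were divided about as evenly (34.5% and 34.9%). Notch1, to whose counts the transgene may add (not tested), was at 1342, 1301 and 1303 CPM in WT0 and 1179.9, 1194 and 1158 CPM in KO7 (log2 -0.16 ± 0.022 SE, adjusted p = 1.83e-09 by edgeR), a small difference. Nrarp, a target that feeds back to limit NOTCH signalling, was at 122, 128 and 123 CPM in WT0 and 41.1, 39.4 and 39.2 CPM in KO7 (log2 -1.64 ± 0.039 SE, adjusted p = 2.23e-50 by edgeR). Hes5, another direct target, was at 1.24, 1.28 and 1.38 CPM in WT0 and 4.83, 3.75 and 4.43 CPM in KO7 (log2 1.74 ± 0.18 SE, adjusted p = 1.99e-14 by edgeR). It reached 29.9 CPM in WT6, far above both groups. Hes1 fell from 48.8 to 37.5 CPM (log2 -0.38), Dtx1, a ubiquitin ligase gene and target, rose from 662 to 758 CPM (log2 0.20) and Notch3 from 277 to 295 CPM (log2 0.091). Direct targets thus differed in sign within 1 comparison.

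The promoters of Hes5 and Ptcra, both higher in KO7, are shown because each holds TGGGAA, the core of the sequence that the NOTCH partner RBPJ binds. They run from 250 bases before to 50 after the gene start, 5′ to 3′ on the gene's strand, from RefSeq on GRCm38.p6. Capitals mark TGGGAA on either strand (TTCCCA when it lies on the other). Hes5 is at chr4:154960673-154960972 on the plus strand and Ptcra at chr17:46763663-46763962 on the minus strand.
Hes5: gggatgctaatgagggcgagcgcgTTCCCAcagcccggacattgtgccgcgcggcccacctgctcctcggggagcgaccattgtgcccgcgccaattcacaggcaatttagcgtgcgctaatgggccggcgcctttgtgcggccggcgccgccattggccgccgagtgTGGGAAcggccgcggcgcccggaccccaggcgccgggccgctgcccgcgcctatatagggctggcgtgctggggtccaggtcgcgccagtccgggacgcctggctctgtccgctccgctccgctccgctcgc
Ptcra: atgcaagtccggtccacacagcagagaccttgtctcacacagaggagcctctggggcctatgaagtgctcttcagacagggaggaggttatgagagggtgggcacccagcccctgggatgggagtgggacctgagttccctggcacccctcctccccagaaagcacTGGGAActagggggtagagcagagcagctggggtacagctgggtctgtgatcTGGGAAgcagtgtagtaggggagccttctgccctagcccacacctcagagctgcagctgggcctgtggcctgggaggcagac
Each promoter has 2 matches. Of the NOTCH list, 4 of 11 higher and 3 of 9 lower members with a promoter held the letters, and 0 of 3 that did not pass, against 25.5% of all 27025 promoters. No match stood in the windows of Nrarp and Il7r, which were lower, or of Dtx1, which was higher. Hes1 and Hey1 had no entry in the promoter table. A match is a description of these letters in this window and not a measured binding site.

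Genes of growth and division were lower in KO7 by small amounts. Of 36 genes of MYC and ribosome production, 28 were lower and 4 higher (median -0.24), of 33 S phase genes 27 and 1 (median -0.24) and of 32 G2 and M phase genes 27 and 3 (median -0.25), against 34.9% lower and 34.5% higher over all tested genes. No member of these 3 lists differed 2-fold. Myc, the growth-promoting transcription factor gene downstream of NOTCH1, was at 292, 312 and 294 CPM in WT0 and 199, 186 and 201 CPM in KO7 (log2 -0.62 ± 0.028 SE, adjusted p = 1.79e-32 by edgeR). Cad, which starts pyrimidine synthesis, fell from 224 to 122 CPM (log2 -0.87). The polymerase subunit Pole fell from 149 to 87.5 CPM (log2 -0.77), and the mitotic factor Foxm1 from 179 to 116 CPM (log2 -0.62). Mki67, the Ki-67 proliferation marker, was at 2187, 2119.8 and 2119 CPM in WT0 and 1534, 1500.2 and 1551 CPM in KO7 (log2 -0.49 ± 0.023 SE, adjusted p = 7.44e-32 by edgeR). Both WT6 (861 CPM) and KO3 (801 CPM) were lower for Mki67 than either group, so KO7 was the second highest of the 4 leukemias. Since counts are shares of a library that also holds other cells, fewer leukemic cells and less RNA per cell cannot be told apart in these bulk samples. Of 73 ribosomal protein genes, 59 were lower and 6 higher (10 to 12 higher under 7 of the alternative settings, median -0.22), and together they took 9.09% of WT0 and 7.90% of KO7 counts.

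Among cell cycle inhibitors and D cyclins, Cdk6, the kinase that pairs with D cyclins, was at 394, 385 and 399.8 CPM in WT0 and 123, 123 and 117 CPM in KO7 (log2 -1.70 ± 0.027 SE, adjusted p = 6.59e-63 by edgeR). WT6 was also low at 178 CPM and KO3 was like WT0 at 414 CPM. The inhibitor Cdkn1a (p21) was at 8.66, 9.04 and 8.83 CPM in WT0 and 19.5, 18.5 and 18.7 CPM in KO7 (log2 1.10 ± 0.082 SE, adjusted p = 3.35e-20 by edgeR), and Ccnd2 rose from 43.2 to 62.8 CPM (log2 0.54). Of the 18 genes in the list, 11 were higher and 6 lower, with a median of 0.23. The p53 list had 13 higher and 8 lower genes of 26 (median 0.16), or 80.8% called against 69.4% of all tested genes. Its members differed in sign, with the antiproliferative gene Btg2 higher (273 to 601 CPM, log2 1.14), the death receptor gene Fas higher (7.00 to 14.9 CPM, log2 1.10) and the BH3-only gene Pmaip1, or Noxa, lower (32.8 to 14.4 CPM, log2 -1.19).

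BCL2 family genes, which decide whether mitochondria release death signals, had 13 higher and 3 lower members of 17, with a median log2 of 0.62. Of all tested genes, 34.5% were higher and 34.9% lower. The gene Hrk of this family had 0 counts in all 6 libraries. Bmf, a BH3-only killer protein, was at 38.1, 43 and 39.9 CPM in WT0 and 145, 142 and 148 CPM in KO7 (log2 1.85 ± 0.04 SE, adjusted p = 1.1e-53 by edgeR). Its level in WT6 was 143 CPM, close to KO7, and 87.2 CPM in KO3. Among protectors, Bcl2 was at 21, 19.7 and 22.1 CPM in WT0 and 10.4, 9.60 and 9.89 CPM in KO7 (log2 -1.07 ± 0.083 SE, adjusted p = 2.27e-19 by edgeR), and Bcl2l2 (Bcl-w) at 36, 37.1 and 31.6 CPM in WT0 and 12.8, 12.5 and 10.6 CPM in KO7 (log2 -1.55 ± 0.071 SE, adjusted p = 3.63e-32 by edgeR). Other protectors were higher, Bcl2l1 (Bcl-xL) with 135 to 229 CPM (log2 0.76) and Mcl1 with 248 to 379 CPM (log2 0.62). Killers and protectors of this family thus stood on both sides.

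Among T-ALL factors, 11 of 26 were higher and 8 lower (median 0.19). Bcl6, a repressor of differentiation, rose from 17.2 to 47.7 CPM (log2 1.47) and was as high in WT6, at 47 CPM. Of 35 genes in this list, 9 were too low to be tested, and Tlx3, Nkx2-1 and Olig2 had 0 counts in all 6 libraries. Immediate early genes, which respond to signals within minutes, had 17 higher and 3 lower members of 27 (median 0.46). Btg1, an antiproliferative gene, rose from 145 to 316 CPM (log2 1.13), the phosphatase gene Dusp2 rose from 28.3 to 66.3 CPM (log2 1.24) and Jun fell from 34.3 to 19.5 CPM (log2 -0.82).

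The ATF4 response, which is switched on when amino acids are short, had 17 higher and 4 lower members of 31, 6 of them higher by at least 2-fold, with a median of 0.25. In all, 67.7% were called, against 69.4% of all tested genes. Of the 6, Ddit4 and Cebpb alone had a mean of at least 5 CPM. The list summed to 2409 CPM in WT0, 2828 CPM in KO7, 3009 CPM in WT6 and 2580 CPM in KO3. Asns, the asparagine synthetase and a standard readout of the ATF4 response, was at 48.5, 46.4 and 47.6 CPM in WT0 and 70.1, 69.6 and 70.0 CPM in KO7 (log2 0.56 ± 0.041 SE, adjusted p = 1.57e-20 by edgeR). KO3 was below all 3 other leukemias at 29.6 CPM. Atf4 itself rose from 235 to 292 CPM (log2 0.31), and its partner Cebpb from 5.94 to 12.2 CPM (log2 1.04). Psat1 and Shmt2, enzymes of serine and glycine synthesis, were lower (log2 -0.37 and log2 -0.49). Among 23 genes of the unfolded protein response, 11 were higher and 8 lower, none by 2-fold (median 0.01), with Xbp1 at 76.7, 75 and 75.6 CPM in WT0 and 129, 133 and 132 CPM in KO7 (log2 0.79 ± 0.032 SE, adjusted p = 1.16e-35 by edgeR). Xbp1 is also high in plasma cells, whose immunoglobulin genes were higher in KO7, and the part of those cells was not tested. Of 19 heat shock chaperones, 13 were lower and 4 higher (median -0.16).

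Oxidative phosphorylation genes, which build the respiratory chain, had 43 higher and 6 lower members of 58, none by 2-fold, with a median of 0.17. Their largest difference was that of Ndufb7, a complex I subunit, from 84.8 to 116 CPM (log2 0.45). NRF2 and redox genes had 22 higher and 2 lower members of 27 (median 0.23). The shares over all tested genes, to set beside both lists, were 34.5% higher and 34.9% lower. Hmox1, the heme-degrading oxygenase, was at 157, 161 and 160.2 CPM in WT0 and 588, 586 and 583 CPM in KO7 (log2 1.88 ± 0.025 SE, adjusted p = 3.21e-68 by edgeR). WT6 (166 CPM) and KO3 (173 CPM) were like WT0. Hmox1 is also a marker of splenic macrophages and was listed as one here, and its place beside the higher macrophage markers was not tested. Gpx1, a peroxide-reducing enzyme that is abundant in red cells, rose from 1245 to 1675 CPM (log2 0.43), and erythroid markers took 4.66% of WT0 and 6.42% of KO7 counts. Taldo1, of the pentose phosphate pathway, rose from 219 to 359.9 CPM (log2 0.72), and the glutathione reductase gene Gsr fell from 216 to 146 CPM (log2 -0.57). The NRF2 motif TGANNNNGC stood on either strand in the promoters of 10 of 20 higher members that had one, against 41.4% of all promoters.

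Of 30 genes of glycolysis and the hypoxia response, 7 were higher and 13 lower (median -0.08). That is 66.7% called, close to the 69.4% of all tested genes. Hk2, the inducible hexokinase, fell from 20.6 to 10.0 CPM (log2 -1.05), while the lactate exporter Slc16a3 rose from 5.41 to 11.9 CPM (log2 1.13). Lipid synthesis genes had 7 higher and 14 lower members of 28 (median -0.12), or 75% called. Elovl6, which lengthens palmitate, was at 28, 26.8 and 26.6 CPM in WT0 and 7.29, 7.72 and 8.07 CPM in KO7 (log2 -1.82 ± 0.078 SE, adjusted p = 5.24e-34 by edgeR). Its KO7 libraries were below WT6 (19.5 CPM) and KO3 (26.1 CPM). Fasn, the fatty acid synthase, fell from 236 to 135 CPM (log2 -0.81). The desaturase gene Scd2 went up, from 292 to 475 CPM (log2 0.70).

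Of 42 interferon response genes, 14 were higher and 14 lower, shares near those of all tested genes (34.5% and 34.9%), with a median of -0.04. Sensors of double-stranded RNA that switch on RNase L were lower. Oas2 was at 13.8, 12.8 and 11.8 CPM in WT0 and 4.52, 5.05 and 3.86 CPM in KO7 (log2 -1.52 ± 0.12 SE, adjusted p = 1.03e-19 by edgeR), and Oas1a at 14.8, 13 and 13.5 CPM in WT0 and 5.53, 5.23 and 5.17 CPM in KO7 (log2 -1.38 ± 0.11 SE, adjusted p = 1.03e-19 by edgeR). Oas3 fell from 59.7 to 28.9 CPM (log2 -1.05). On the other side, Zbp1, a sensor of Z-form nucleic acid, was at 15.3, 12.5 and 13.3 CPM in WT0 and 34.1, 38.5 and 35.7 CPM in KO7 (log2 1.40 ± 0.067 SE, adjusted p = 5.63e-31 by edgeR), and Slfn5 at 38.1, 37.3 and 34.7 CPM in WT0 and 75.9, 78.8 and 76.6 CPM in KO7 (log2 1.07 ± 0.043 SE, adjusted p = 2.29e-35 by edgeR). Epsti1 rose from 17.1 to 47.5 CPM (log2 1.48). The widely used markers Isg15 (log2 0.25 ± 0.033 SE, adjusted p = 6.62e-10 by edgeR) and Rsad2 (log2 -0.15 ± 0.024 SE, adjusted p = 1.16e-07 by edgeR) differed little. Oas2 was lowest in WT6 (1.59 CPM).

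The promoters of Oas1a, which fell, and Slfn5, which rose, are shown because both hold the interferon-stimulated element core, which is GAAA, then 2 bases of any kind, then GAAA, marked in capitals where it stands on the printed strand (overlapping matches run together). Oas1a is at chr5:120907476-120907775 on the minus strand and Slfn5 at chr11:82951852-82952151 on the plus strand (RefSeq, GRCm38.p6).
Oas1a: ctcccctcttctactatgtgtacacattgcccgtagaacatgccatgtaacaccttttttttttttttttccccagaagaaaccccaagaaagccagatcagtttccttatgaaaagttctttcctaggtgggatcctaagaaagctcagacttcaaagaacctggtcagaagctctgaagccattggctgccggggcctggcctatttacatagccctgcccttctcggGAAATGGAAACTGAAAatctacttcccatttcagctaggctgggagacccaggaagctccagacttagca
Slfn5: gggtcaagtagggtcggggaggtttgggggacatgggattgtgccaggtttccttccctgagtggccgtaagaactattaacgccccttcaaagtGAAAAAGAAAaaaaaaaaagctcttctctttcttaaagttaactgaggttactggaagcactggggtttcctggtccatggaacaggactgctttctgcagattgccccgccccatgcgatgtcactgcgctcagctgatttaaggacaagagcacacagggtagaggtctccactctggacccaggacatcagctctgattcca
Oas1a has 2 overlapping matches and Slfn5 has 1. Searched on both strands, this core stood in 6 of 10 higher members with a promoter, 6 of 12 lower ones and 5 of 10 that did not pass, against 3.49% of all promoters. Oas2 and Zbp1 had no entry in the table.

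Interferon-inducible GTPases and p200 genes had 18 higher and 5 lower members of 28 (median 0.46). Ifi204, a p200 DNA sensor, was at 259, 266 and 267 CPM in WT0 and 92.7, 97 and 97.9 CPM in KO7 (log2 -1.46 ± 0.03 SE, adjusted p = 1.25e-54 by edgeR), while its relative Ifi208 was at 4.31, 3.31 and 3.23 CPM in WT0 and 16.2, 16.2 and 15.7 CPM in KO7 (log2 2.14 ± 0.11 SE, adjusted p = 9.03e-29 by edgeR). These genes have near-identical copies, and reads may be split between them, so single members are uncertain. KO3 was like WT0 for Ifi204, at 297 CPM, and WT6 like KO7, at 81.3 CPM. The GTPase genes Iigp1 (15 to 39.6 CPM, log2 1.41) and Gbp8 (41.4 to 99.5 CPM, log2 1.26) rose. MHC class I genes had 17 higher and 2 lower members of 19, none by 2-fold, with a median of 0.25. H2-D1, a classical class I heavy chain, was at 369, 377 and 377 CPM in WT0 and 642, 626 and 621 CPM in KO7 (log2 0.75 ± 0.024 SE, adjusted p = 7e-42 by edgeR). The peptide pump subunit Tap2 rose from 150.1 to 298 CPM (log2 0.99) and the light chain B2m from 1045 to 1454 CPM (log2 0.48), whereas Nlrc5, the activator of these genes, fell from 39.1 to 28.2 CPM (log2 -0.47). MHC class II genes had 8 higher and 3 lower members of 11 (median 0.24). For comparison with these lists, 34.5% of all tested genes were higher and 34.9% lower. The cathepsin gene Ctss, which B cells and macrophages share, rose from 65.2 to 206 CPM (log2 1.66), and the activator Ciita fell from 16 to 7.24 CPM (log2 -1.14), as did H2-Ob of B cells (log2 -1.86).

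Markers of other spleen cells differed between the groups and are given as measured, since leukemic T cells were not the sole source of RNA. Macrophage markers had 26 higher and 3 lower members of 29, 21 of them higher by at least 2-fold (median 1.70). Shares over all tested genes were 34.5% higher and 34.9% lower, and 8.64% higher by at least 2-fold. Their levels summed to 2155 to 2191 CPM in WT0 and 6522 to 6565 CPM in KO7, or 0.215% and 0.651% of counts. Cd163, the scavenger receptor of tissue macrophages, was at 12.4, 11.5 and 9.35 CPM in WT0 and 84.3, 91.1 and 95.1 CPM in KO7 (log2 3.00 ± 0.062 SE, adjusted p = 9.86e-55 by edgeR). Spic and Vcam1, which mark the macrophages of the red pulp, rose from 35.5 to 126 CPM (log2 1.82) and from 305 to 1094 CPM (log2 1.84). The myeloid genes Lyz2 (145 to 53.6 CPM, log2 -1.44) and Cx3cr1 (3.81 to 1.02 CPM, log2 -1.87) fell. No marker of the list was at 0. The summed level was 0.368% of counts in WT6 and 0.267% in KO3.

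B cell markers had 16 lower and 0 higher members of 18, 12 of them lower by at least 2-fold (median -1.95). Shares over all tested genes were 34.5% higher and 34.9% lower, and 7.56% lower by at least 2-fold. The B cell markers summed to 191 to 202 CPM in WT0 and 88.4 to 91.4 CPM in KO7. The B cell identity factor Pax5 was at 8.79, 10.9 and 9.41 CPM in WT0 and 0.804, 0.966 and 0.852 CPM in KO7 (log2 -3.47 ± 0.17 SE, adjusted p = 6.15e-30 by edgeR). Plasma cell and immunoglobulin constant genes went the other way, with 14 higher and 3 lower of 20 (median 0.88) and 0.203% of WT0 and 0.602% of KO7 counts. The kappa constant gene Igkc rose from 434 to 1485 CPM (log2 1.77) and Iglc2 from 16.6 to 181 CPM (log2 3.44), while Ighd, which marks naive B cells, fell (log2 -2.08). WT6 held more of these than KO7, at 1.53% of counts. Of 216 tested immunoglobulin genes of all kinds, 128 were higher and 22 lower in KO7.

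Erythroid markers had 18 higher and 7 lower members of 28 (median 0.21). Beside this list and those below, 34.5% of all tested genes were higher and 34.9% lower. The erythroid markers summed to 4.66% of WT0 and 6.42% of KO7 counts, against 1.40% in WT6 and 1.30% in KO3. Alas2, the first enzyme of heme synthesis in red cells, was at 1127, 1128 and 1136 CPM in WT0 and 2084, 2134 and 2101 CPM in KO7 (log2 0.90 ± 0.021 SE, adjusted p = 1.85e-50 by edgeR). Neutrophil markers had 15 higher and 1 lower member of 17 (median 1.05) at a summed 87.6 to 89.6 CPM in WT0 and 157 to 164 CPM in KO7. Platelet markers had 13 lower and 1 higher member of 15 (median -0.44), and dendritic cell markers had 9 higher and 1 lower of 14 (median 0.41). Mast cell genes had 8 higher and 0 lower of 12 (median 0.94), at a summed 26 to 29.4 CPM in WT0 and 42.7 to 45.4 CPM in KO7. Cytotoxic and NK genes had 11 higher and 3 lower members of 19 (median 1.14), yet Gzma, a granzyme of cytotoxic cells, fell from 390.3 to 167 CPM (log2 -1.23). Another 11 listed genes were too low to test, and the list summed to 533 CPM in WT0 and 490 CPM in KO7. Gzma alone made up much of the WT0 sum, so the lower KO7 sum does not show that the other members were lower. Of 9 members higher by at least 2-fold, only Ccl5, Fcer1g and Tyrobp had a mean of at least 5 CPM. Fcer1g and Tyrobp, signalling adaptors shared by NK cells and macrophages, rose from 33.7 to 121 CPM (log2 1.84) and from 37.6 to 92.8 CPM (log2 1.31). Among stromal genes, Pdgfrb, a growth factor receptor of mural cells, was at 305, 299 and 301 CPM in WT0 and 59.1, 58.3 and 58.4 CPM in KO7 (log2 -2.36 ± 0.031 SE, adjusted p = 3.21e-68 by edgeR), and the collagen gene Col1a1 was lower too (log2 -1.25). The chemokine gene Cxcl12 (log2 1.88), Pdgfra (log2 1.63) and the matrix gene Dcn (log2 1.20) were higher. Stromal markers summed to 844 to 857 CPM in WT0 and 825 to 835 CPM in KO7, and 9 of 20 were higher and 7 lower (median 0.30). Pdgfrb alone made up much of the WT0 sum, so the near-equal sums do not show that the other stromal markers were unchanged.

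**Figure D3:**
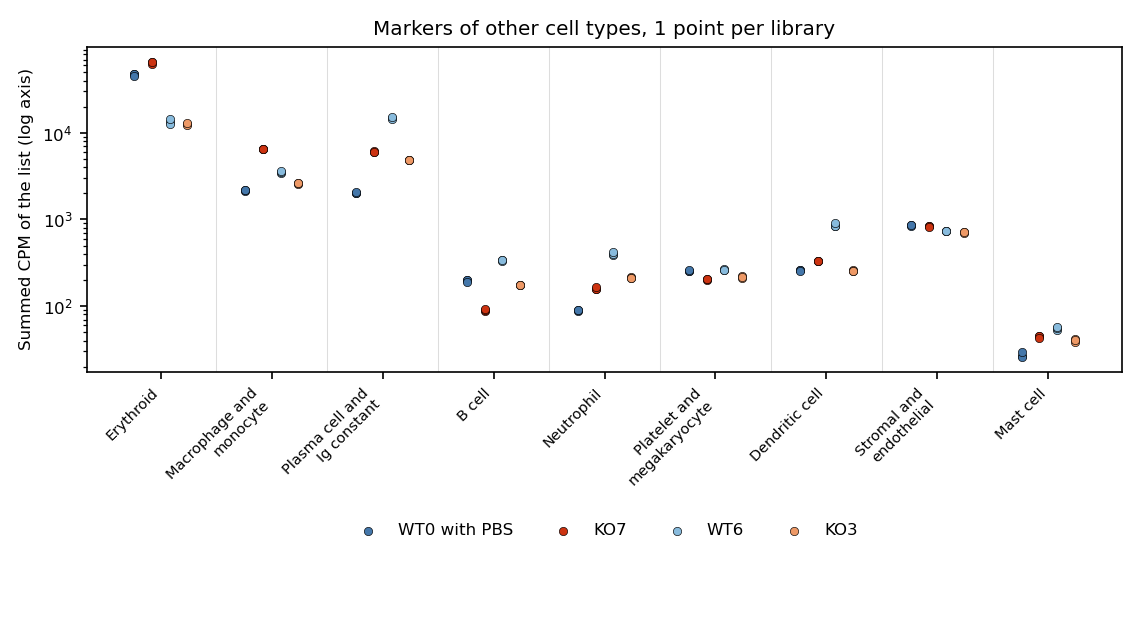
Summed level of 9 marker lists of other spleen cells in CPM (y axis, log scale), with 1 point per library of WT0 with PBS, KO7, WT6 and KO3. KO7 lay above WT0 for macrophage markers (6522 to 6565 against 2155 to 2191 CPM) and below it for B cell markers.

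The largest single-gene differences, leaving out gene models, receptor, immunoglobulin and sex-linked genes, included genes near 0 in KO7 and genes near 0 in WT0. Kcnn3, a calcium-gated potassium channel, was at 12.7, 12.1 and 13 CPM in WT0 and 0.151, 0.114 and 0.114 CPM in KO7 (log2 -6.56 ± 0.26 SE, adjusted p = 1.76e-36 by edgeR). Ryr2, the calcium release channel of the endoplasmic reticulum, was at 14.6, 16.8 and 16.9 CPM in WT0 and 0.251, 0.114 and 0.227 CPM in KO7 (log2 -6.29 ± 0.21 SE, adjusted p = 9.8e-41 by edgeR). In both cases KO7 was the lowest of the 4 leukemias, with Ryr2 at 4.59 CPM in WT6 and 1.37 CPM in KO3. Kcnn3 was at 1.36 CPM in WT6 and 1.48 CPM in KO3, so WT0 stood far above the other leukemias. The complement regulator Susd4 was at 88.6, 93.4 and 93.1 CPM in WT0 and 3.52, 2.95 and 3.30 CPM in KO7 (log2 -4.81 ± 0.077 SE, adjusted p = 2.31e-62 by edgeR), and the homeobox gene Cux2 fell from 18.3 to 0.895 CPM (log2 -4.33). Mpzl2, an adhesion protein of thymic epithelium and T cells, was at 243, 248 and 255 CPM in WT0 and 20.7, 21.1 and 23.2 CPM in KO7 (log2 -3.52 ± 0.04 SE, adjusted p = 2.5e-72 by edgeR). Mpzl2 was at 212 CPM in KO3, somewhat below WT0, and at 36 CPM in WT6, somewhat above KO7. Susd4 was at 18.4 CPM in WT6 and 10.0 CPM in KO3. In every gene named in this paragraph, WT0 had the highest mean of the 4 leukemias. The other genes with losses of this size were Bnip5 (log2 -5.24), the sodium-proton exchanger gene Slc9a2 (log2 -5.17), Tceal3 (log2 -4.52), Eps8l1 (log2 -4.31), Iqcg (log2 -4.18) and Espnl (log2 -3.74).

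Gains were led by Mn1, a transcriptional coactivator that is rearranged in some myeloid leukemias, at 0.488, 0.485 and 0.346 CPM in WT0 and 18.5, 19.4 and 18 CPM in KO7 (log2 5.36 ± 0.17 SE, adjusted p = 1.08e-42 by edgeR). WT6 had the same level, 18 CPM, and KO3 was at 0.747 CPM. Dpf1, a subunit of neural BAF chromatin remodelling complexes, was at 0.755, 0.926 and 1.10 CPM in WT0 and 22.3, 18.9 and 21.1 CPM in KO7 (log2 4.50 ± 0.15 SE, adjusted p = 1.45e-41 by edgeR), and the DNA-binding protein gene Trnp1 rose from 1.39 to 22.5 CPM (log2 4.01). For Dpf1 the KO7 libraries exceeded all 3 other leukemias (WT6 5.03 CPM, KO3 1.32 CPM). Other gains were those of Spats2l (log2 3.77), Prr29 (log2 3.39), Raver2 (log2 2.98), the sterol hydroxylase gene Cyp39a1 (log2 3.11) and Morc1 (log2 2.89). Cd163, the chemokine gene Ccl8 (log2 2.99), the Fc receptor gene Fcgr4 (log2 2.94) and Ms4a4a (log2 3.14), which macrophages express, were also among the 12 largest gains, beside the 3-fold higher sum of the macrophage list.

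**Figure D4:**
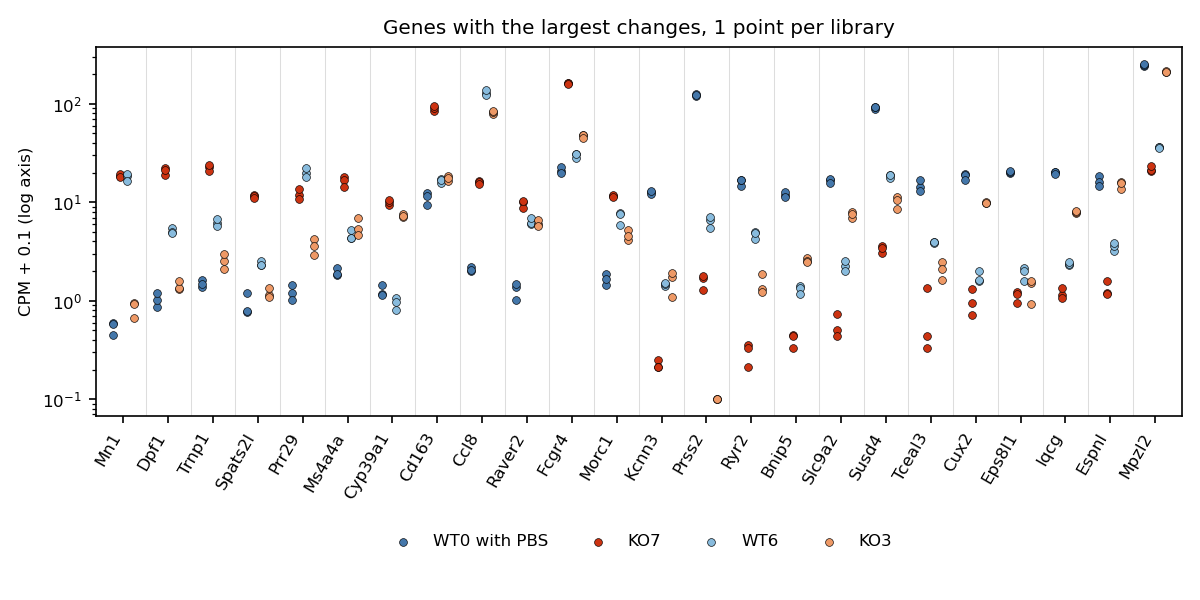
Level of the 24 genes with the largest differences (x axis) in CPM plus 0.1 (y axis, log scale), with 1 point per library of WT0 with PBS, KO7, WT6 and KO3. In the 12 genes on the left all KO7 libraries lay above all WT0 libraries, and in the 12 on the right below them, by the rule that chose them.

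By class, gene models and pseudogenes leaned to lower values in KO7, with 362 higher and 800 lower of 2209 and a median log2 of -0.26, while the other 13449 genes had 4990 higher, 4709 lower and a median of 0.016. The plot of log2 differences by list shows where the lists stood. Macrophage, cytotoxic and neutrophil markers had medians above 1, B cell markers had the lowest, and lists of growth and division clustered between -0.22 and -0.25. The summed level of the cytotoxic list was lower in KO7 than in WT0, but Gzma alone made up much of the WT0 sum.

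**Figure D5:**
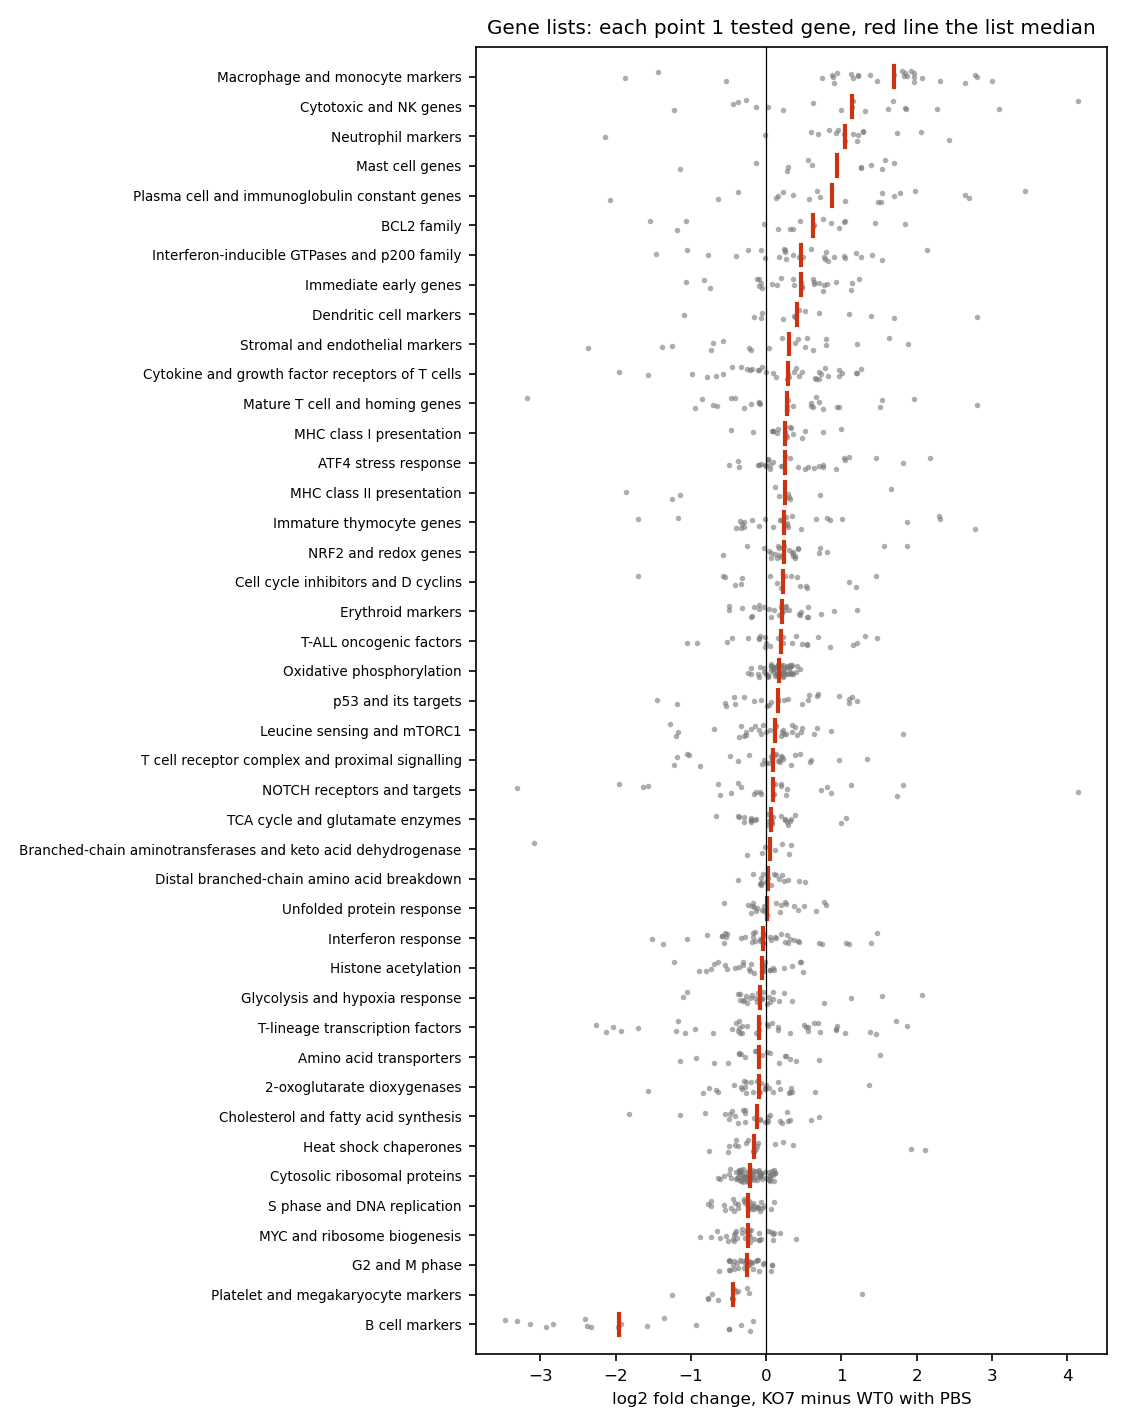
Log2 difference between KO7 and WT0 with PBS (x axis) for each tested gene (grey point) of 43 lists (y axis, sorted by median), with the list median as a red line. The median was 1.70 for macrophage markers, -1.95 for B cell markers and -0.24 for S phase genes, against -0.0017 over all tested genes.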

How the data were processed

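Per the labels' protocols, RNA was taken up with the RNeasy kit and made into TruSeq stranded mRNA libraries. Per gene, the authors deposited unnormalised counts of read pairs, obtained with featureCounts 2.0.1 per the file headers. Both ends had to map, chimeras were dropped, pairs had to overlap by 25 bases with strand setting 2, and exons came from a GRCm38.p6 RefSeq annotation. Trim Galore, STAR, Subread, DESeq2 and mm10 are named, per the submitters' processing notes, with no settings. The deposited gene lengths (another unit) were not used here. In the header, the names of the 3 WT0 libraries contain DMSO, whereas the labels say PBS. In all, 39827 genes were read and 39743 had a symbol; the lines of Neb, Mycbp2 and Huwe1 were broken and left out. All 15 value columns belonged to samples of the series.

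Counts of all 15 libraries in 5 groups were fitted in R 4.3.3 with edgeR 4.0.16 (filterByExpr by group, TMM, glmQLFit and glmQLFTest, 10 residual degrees of freedom). Genes passed at an adjusted p under 0.05. Between libraries of a group the biological coefficient of variation was 2.18%, so small differences passed. The libraries of a group differed by more than sampling noise and were each counted. Members and lists were chosen with earlier results of these data known. Genes named are Bcat1, 12 in each direction by size of difference (mean of at least 5 CPM, no overlap between groups, without gene models or genes of receptors, antibodies and sex chromosomes), up to 5 of each list, and list members that define a role; some of these genes are not reported here. Lists have no set test. Promoters are RefSeq's, 300 bases for 27025 genes. The fit was tested on simulated data. Alternatives were DESeq2 1.42.0, other scalings and filters, each library left out, and a test against a 2-fold change.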

Additional observations from a re-analysis of the deposited data

How the results depend on the processing

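Under 14 alternatives, the counts of genes higher and lower stayed within 1.5 times of the values above, and of 267 genes that the naming rule or the text picks besides Bcat1, none that passed changed direction (257 in the fit without erythroid and immunoglobulin genes). Bckdhb was the one that lost its call, without WT0 replicate 2 (log2 0.28), WT0 replicate 3 (0.30) or KO7 replicate 2 (0.17). Dbt, which did not pass, changed sign with upper quartile scaling (log2 0.0020) and, with 1 library left out, ranged from -0.0496 to 0.017 (0.0029 without WT0 replicate 1). A test against a 2-fold change called 739 genes higher and 589 lower, fewer because the difference itself must exceed 2-fold. With 1 library left out, 5230 to 5318 genes were higher and 5315 to 5406 lower, 1378 to 1416 and 1191 to 1231 of them at least 2-fold, and Bcat1 stood at -3.29 to -2.90. DESeq2 called 5300 higher and 5192 lower, and the 6 libraries alone 5440 and 5415. The number of ribosomal protein genes called higher was 10 to 12 under 7 alternatives, among them both other scalings. Leaving out KO7 replicate 1 gave 0 S phase and 1 G2 and M phase gene higher and 1 MHC class I gene lower. Other scalings moved the median log2 of all genes by at most 0.014. The replicate numbers did not pair the libraries (correlations of same-numbered libraries of -0.004, -0.025 and 0.008), and a replicate block gave 5473 genes higher and 5541 lower, 1372 and 1199 at least 2-fold, with Bcat1 at -3.09. The labels do not say whether the libraries of a group came from separate mice. Depth leaves genes near 0 CPM with bounds only.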
